A study of Homo sapiens with 2 samples.

Results

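The family of miR-130, miR-301 and miR-454 comprises 5 human miRNA hairpins (hsa-mir-130a, hsa-mir-130b, hsa-mir-301a, hsa-mir-301b and hsa-mir-454), chosen here by hairpin name with both arms of each. They account for 10 of the 2121 rows of the deposited count table. Small-RNA sequencing was done on stem-enriched cells sorted from 2 established breast cancer cell lines, 1 library each, so that the lines' miRNAs could be compared. MDA-MB-468, grown in DMEM, is labelled ER-, PR- and HER2- (triple-negative: without oestrogen receptor, progesterone receptor and HER2), and BT474, grown in RPMI-1640, is labelled ER+. Both were grown with fetal bovine serum, penicillin and streptomycin, and both were sorted by flow cytometry with the surface markers CD24 and CD44, at a gate not given in the sources used here. Unsorted cells were not analysed here, so line, medium and sort cannot be told apart.

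A miRNA hairpin is cut into a 5p and a 3p arm, either of which can be loaded into an Argonaute protein and lead it to messenger RNAs. Pairing rests mainly on the seed, bases 2 to 8 of the loaded arm, so miRNAs with 1 seed share many predicted targets. The 3p arms of this family are the arms usually described as functional; miR-130a and miR-130b are known to repress the adipocyte regulator PPARG, and miR-130a the homeobox genes GAX and HOXA5 in endothelial cells.

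The mature 3p sequences are shown because they define the family; bases 2 to 8 are in capitals. RefSeq (GRCh38.p14) gave 8 of the 10 mature sequences, and miR-130a-3p and miR-301b-5p are named only.
miR-130b-3p: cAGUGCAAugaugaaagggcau
miR-301a-3p: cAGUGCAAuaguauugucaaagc
miR-301b-3p: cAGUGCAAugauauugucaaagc
miR-454-3p: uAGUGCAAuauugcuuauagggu
All 4 printed 3p arms carry the seed AGUGCAA. miR-301a-3p and miR-301b-3p differ at 2 positions, A10G and G11A (miR-301a base first, positions from the 5′ end). miR-130b-3p and miR-301b-3p have the same first 12 bases, and miR-454-3p departs from each of the other 3 at base 1 (C1U, its own base last). How tags matching several of these were assigned is not stated.

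The 5p arms are shown because they held most of the reads of 2 of the hairpins, as described further on; bases 2 to 8 are again in capitals.
miR-130b-5p: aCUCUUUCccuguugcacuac
miR-301a-5p: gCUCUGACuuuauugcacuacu
miR-454-5p: aCCCUAUCaauauugucucugc
Each of these 3 has a seed of its own, and none has the seed of the 3p arms.

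The hairpins lie at 3 loci (GENCODE 29, GRCh38). MIR130A (chr11:57641198-57641286, plus strand) lies in an intron of the non-coding gene AP000662.1. MIR301B (chr22:21652981-21653058) and MIR130B (chr22:21653304-21653385) lie 245 bases apart on the plus strand within the non-coding gene AP000553.1, MIR301B in an intron and MIR130B overlapping 44 bases of an exon. MIR301A (chr17:59151136-59151221) and MIR454 (chr17:59137758-59137872) lie 13263 bases apart on the minus strand in introns of SKA2, which encodes a spindle and kinetochore protein.

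The MDA-MB-468 library totalled 11448022 annotated miRNA counts and the BT474 library 5133057. Levels are given in counts-per-million (CPM) of these totals, and a ratio sets MDA-MB-468 over BT474. No difference has a replicate check or can be tested, since a group is 1 library; brackets give 95% intervals, exact Poisson for CPM, exact conditional binomial for ratios and Clopper-Pearson for shares, which cover counting error only. A miRNA was compared when it had at least 10 counts in a library (690 did) and called when it differed at least 2-fold with an interval that excluded 1. By this rule 32.9% of the 690 stood higher in MDA-MB-468 and 28.3% stood lower, 61.2% in either direction, with a median log2 ratio of 0.30. The balance turned with scaling: without the 10 most abundant miRNAs in the total, and likewise with upper-quartile scaling, 196 of the 690 stood higher and 222 lower. The smallest listed count was 2, so a blank cell means not listed rather than 0. The epithelial miR-200, miR-141, miR-429 and miR-203a arms, a check of the labelled breast epithelial origin, were listed for 10 of 11 in each library. They summed to 62441 CPM in BT474 and 75793 in MDA-MB-468, with arms in opposite directions. miR-200b-3p (24579 CPM in BT474 and 50450.5 in MDA-MB-468) and miR-200a-5p were called higher in MDA-MB-468. miR-200c-3p (26622 CPM in BT474 and 10434 in MDA-MB-468) and miR-141-3p were called lower, and the others were not called. Of the blood cell list 6 of 9 arms were listed in BT474 (52.8 CPM in sum) and 7 in MDA-MB-468 (42.0 CPM), and miR-223-5p was listed in neither. The stroma and endothelium list (miR-143, miR-145, miR-126, miR-199a and miR-214) summed to 859 CPM in BT474 and 589 in MDA-MB-468, with arms in opposite directions. miR-143-3p (158 CPM in BT474 and 354 in MDA-MB-468) and miR-145-5p were called higher in MDA-MB-468. miR-126-3p (660 CPM in BT474 and 209 in MDA-MB-468), miR-126-5p and miR-199a-3p were called lower. The basal epithelial list (miR-205, miR-221 and miR-222) summed to 443 CPM in BT474 and 26177 in MDA-MB-468, the direction of miR-130a-3p. The luminal list (miR-375, miR-342 and miR-190b) summed to 2835 CPM in BT474 and 1406 in MDA-MB-468, but its arms had no common direction. Both miR-342 arms were called lower in MDA-MB-468, the direction of miR-454-3p, and miR-375 was not called. miR-190b was called higher there, at 7.25 CPM against 3.51 in BT474. The part of these cell types in the members' differences was not tested.

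Of the 10 member arms 8 could be compared. Of these, 1 was called higher in MDA-MB-468, 3 were called lower and 4 neither, with a median log2 ratio of -0.96; the 4 calls, set against 61.2% of all miRNAs, are not more than the background share. The family therefore had no common direction, and the 3 loci are described in turn.

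**Figure D1:**
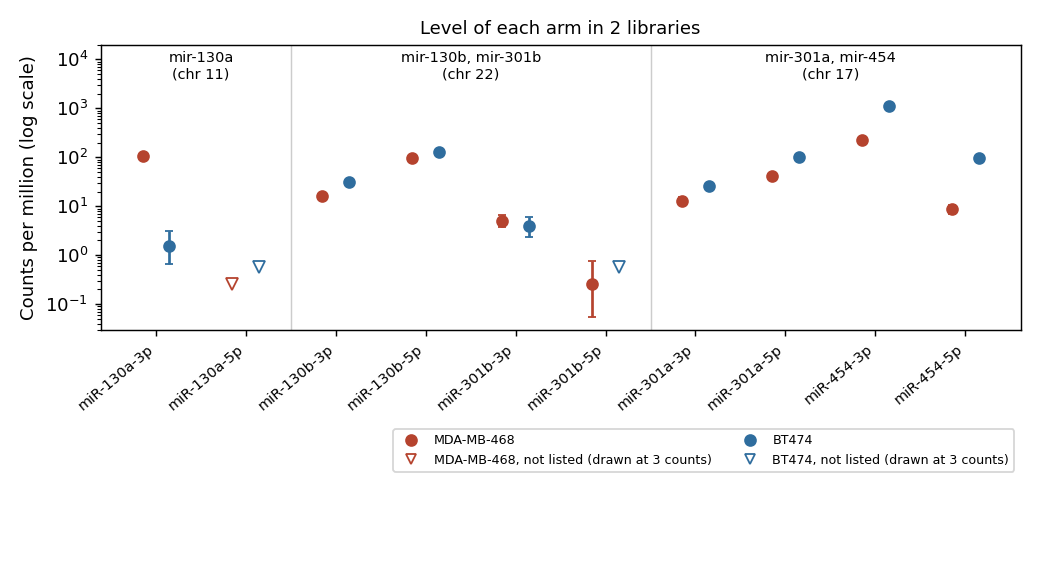
Level of each member arm in CPM (log scale) in the MDA-MB-468 and BT474 libraries, ordered by locus, with exact 95% Poisson intervals; open triangles mark arms that were not listed, drawn at 3 counts. miR-130a-3p stands at 1.56 CPM in BT474 and at 104 CPM in MDA-MB-468, while both arms of mir-454 are higher in BT474.

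miR-130a-3p, an angiogenesis-linked miRNA, was the member that stood higher in MDA-MB-468. BT474 gave 8 counts, or 1.56 CPM (0.673 to 3.07), and MDA-MB-468 gave 1196, or 104 CPM (98.6 to 111). The 2 levels were far outside each other's counting error, and the ratio was 67.0-fold (33.9 to 156; log2 6.07, 5.08 to 7.28). The width of that interval comes from the 8 counts. miR-130a-3p ranked 158th among 1623 mature miRNAs in MDA-MB-468 and 517th in BT474, and 98.6% of the 690 compared miRNAs had a lower ratio. miR-130a-5p was listed in neither library. In MDA-MB-468 all 1196 listed reads of the hairpin therefore lay on the 3p arm.

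The 22q pair, mir-130b and mir-301b, had no arm called as different between the libraries. miR-130b-3p had 157 counts (30.6 CPM, 26.0 to 35.8) in BT474 and 184 (16.1 CPM, 13.8 to 18.6) in MDA-MB-468. Its log2 ratio of -0.93 (-1.24 to -0.61) excluded equal levels but not the 2-fold limit, and it was not called. miR-130b-5p had 658 counts (128 CPM, 119 to 138) in BT474 and 1084 (94.7 CPM, 89.1 to 100.5) in the other line, a log2 ratio of -0.44 (-0.58 to -0.30). Both arms of mir-130b thus had higher values in BT474. miR-130b-3p was called under 2 of 8 alternative settings (-1.14 without the 10 most abundant miRNAs and with upper-quartile scaling), and miR-130b-5p under none of them. The settings for blank cells could not change either ratio, as neither arm was blank. miR-301b-3p was scarce, with 20 counts (3.90 CPM, 2.38 to 6.02) in BT474 and 58 (5.07 CPM, 3.85 to 6.55) in MDA-MB-468, and its log2 ratio of 0.38 had an interval (-0.38 to 1.19) that included equal levels. miR-301b-5p had 3 counts in MDA-MB-468 and was not listed in BT474, too few for a ratio. With the 3p arms summed the locus stood at 34.5 CPM in BT474 and 21.1 CPM in MDA-MB-468 (log2 -0.71, -0.99 to -0.42), not called. Within that sum miR-130b-3p made up 88.7% (83.1 to 93.0) in BT474 and 76.0% (70.1 to 81.3) in MDA-MB-468.

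The 17q pair, mir-301a and mir-454, was higher in BT474. miR-454-3p, the most abundant member in both libraries, had 5772 counts (1124 CPM, 1096 to 1154) in BT474 and 2547 (222 CPM, 214 to 231) in MDA-MB-468. It was 5.05-fold higher in BT474 (4.82 to 5.30; log2 -2.34) and ranked 51st there against 123rd in MDA-MB-468. miR-454-5p, its partner arm, had 503 counts (98.0 CPM, 89.6 to 107) in BT474 and 99 (8.65 CPM, 7.03 to 10.5) in MDA-MB-468. That arm was 11.3-fold higher in BT474 (9.12 to 14.2; log2 -3.50), a larger ratio than that of the 3p arm, and the intervals of the 2 ratios did not overlap.

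miR-301a, from the same SKA2 introns, differed less. miR-301a-5p had 529 counts (103 CPM, 94.5 to 112) in BT474 and 470 (41.1 CPM, 37.4 to 44.9) in MDA-MB-468, and was called 2.51-fold higher in BT474 (2.21 to 2.85; log2 -1.33). miR-301a-3p had 132 counts (25.7 CPM, 21.5 to 30.5) in BT474 and 149 (13.0 CPM, 11.01 to 15.3) in MDA-MB-468. Its log2 ratio of -0.98 (-1.33 to -0.63) lay just short of 2-fold. The arm was called under 3 of 8 alternative settings, which left the 10 most abundant miRNAs out of the total, scaled to the upper quartile, or thinned the deeper library (-1.19, -1.19 and -1.24). The settings for blank cells could not change this ratio, as the arm was not blank. Thinning was 1 random draw of the MDA-MB-468 counts, and the ratio after it also carries the error of that draw. With both arms summed, mir-301a had a log2 ratio of -1.25 (-1.41 to -1.09) and mir-454 one of -2.40 (-2.47 to -2.34). These intervals did not overlap, so the 2 hairpins of 1 host gene differed by unequal amounts. The same can be put without any scaling between libraries: mir-301a gave 9.53% (8.85 to 10.2) of the reads of the pair in BT474 and 19.0% (17.6 to 20.3) in MDA-MB-468. Fewer cells with these miRNAs and lower levels per cell cannot be told apart in bulk libraries.

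**Figure D2:**
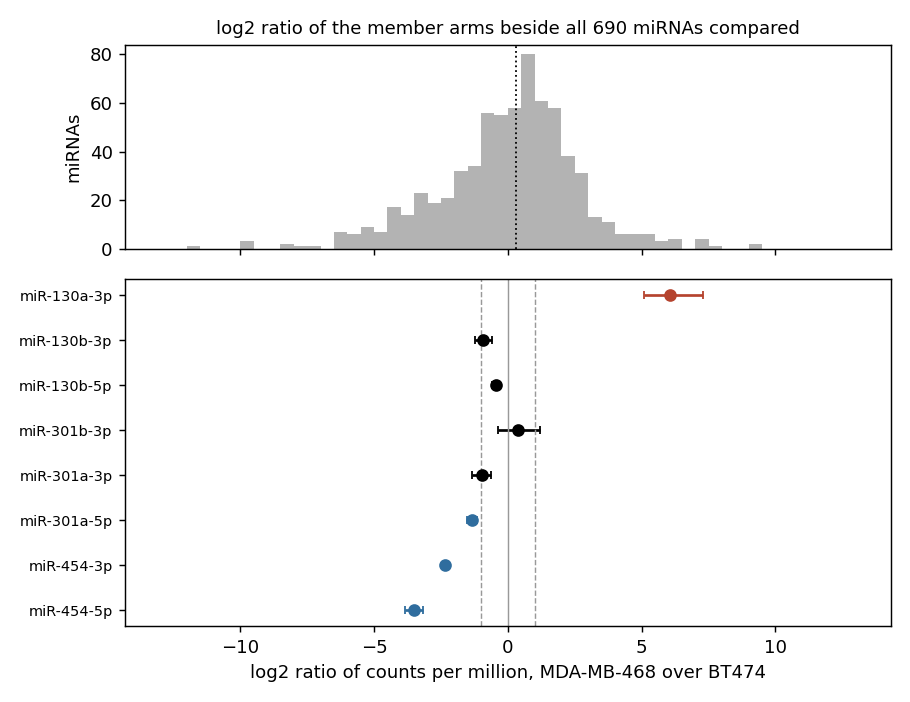
Upper panel: histogram of the log2 ratio (MDA-MB-468 over BT474) of the 690 compared miRNAs, with the median of 0.30 dotted. Lower panel: log2 ratios of the 8 compared member arms with exact 95% intervals; dashed lines mark 2-fold, and coloured points are called. The points run from -3.50 for miR-454-5p to 6.07 for miR-130a-3p.

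The promoter of SKA2 (RefSeq, GRCh38.p14, chr17:59155137-59155436, minus strand, 250 bases before to 50 after the start) is shown because the 17q hairpins share this host. MIR301A lies 4048 bases and MIR454 17397 bases inside the 5′ end of the gene in GENCODE 29 (chr17:59155269). That end is not the RefSeq start used for the window. Capitals mark CCAAT, the core of the CCAAT box, a motif chosen after this sequence was seen.
SKA2 promoter: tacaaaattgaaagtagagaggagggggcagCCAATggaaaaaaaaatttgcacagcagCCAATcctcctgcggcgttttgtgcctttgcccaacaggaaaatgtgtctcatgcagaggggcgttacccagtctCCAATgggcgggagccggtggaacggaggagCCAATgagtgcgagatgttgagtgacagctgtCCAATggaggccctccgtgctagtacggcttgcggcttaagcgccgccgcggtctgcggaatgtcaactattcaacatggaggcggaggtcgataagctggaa
CCAAT occurs 5 times on the printed strand and its reverse complement ATTGG 0 times. At least 1 match on either strand was present in 34.6% of 35116 promoter windows of the same length, and at least 5 in 0.359%. Because the motif was chosen from this window, the second share does not measure how unusual the window is. These are matches of letters, and neither SKA2 messenger RNA nor factor binding was measured.

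The counts of the 5 arms with the family seed were then summed, since they share the bases that lead target pairing. The sum was 1186 CPM (1157 to 1216) in BT474 and 361 CPM (350 to 372) in MDA-MB-468. It was called 3.28-fold higher in BT474 (3.16 to 3.42; log2 -1.72). miR-454-3p made up 94.8% of the sum in BT474 (94.2 to 95.3) and 61.6% in MDA-MB-468 (60.1 to 63.1). miR-130a-3p made up 0.131% (0.0567 to 0.259) in BT474 and 28.9% (27.6 to 30.3) in MDA-MB-468. By locus, the 17q pair gave 97.0% of the sum in BT474 and 65.2% in MDA-MB-468, and the 22q pair 2.91% and 5.85%. The seed was therefore supplied almost wholly from 17q in BT474 and from 17q and mir-130a in MDA-MB-468. Without miR-454-3p the direction of the sum turned, to 61.8 CPM in BT474 and 139 CPM in MDA-MB-468 (log2 1.17, 0.99 to 1.35). miR-130a-3p gave 1.56 of those CPM in BT474 and 104 in MDA-MB-468. Of the remaining arms, none called, miR-130b-3p (log2 -0.93) and miR-301a-3p (-0.98) had higher values in BT474 and miR-301b-3p (0.38) in MDA-MB-468. Without miR-130a-3p the sum was 1185 CPM in BT474 and 257 CPM in MDA-MB-468 (log2 -2.21, -2.27 to -2.14). Ligation and amplification can differ between sequences and were not tested, so levels of different miRNAs are set side by side as counts and not as molecules.

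**Figure D3:**
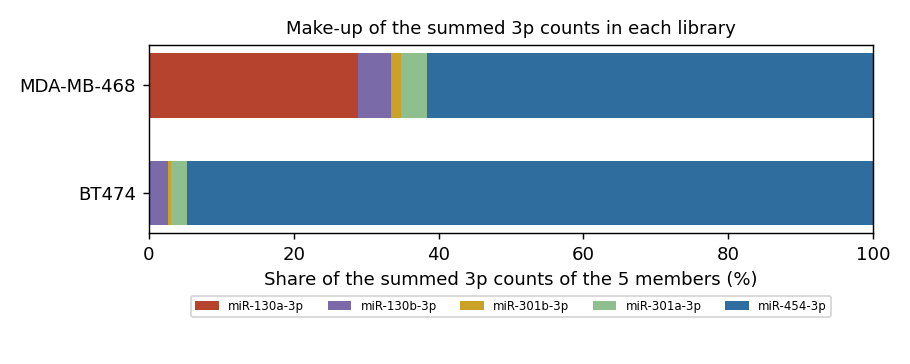
Share (%) of each member in the summed 3p counts of the family, 1 bar per library. miR-454-3p fills 94.8% of the BT474 bar and 61.6% of the MDA-MB-468 bar, where miR-130a-3p takes 28.9%.

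The order of the arms differed between the libraries. In MDA-MB-468 it ran from miR-454-3p through miR-130a-3p, miR-130b-5p, miR-301a-5p, miR-130b-3p, miR-301a-3p, miR-454-5p and miR-301b-3p to miR-301b-5p. Among the first 8 of these, the counting intervals of miR-130a-3p and miR-130b-5p overlapped, as did those of miR-130b-3p and miR-301a-3p, and those of the other neighbours did not. In BT474 miR-454-3p was followed by miR-130b-5p, miR-301a-5p, miR-454-5p, miR-130b-3p, miR-301a-3p, miR-301b-3p and, last of the listed arms, miR-130a-3p. Here the overlapping neighbours were miR-301a-5p with miR-454-5p, miR-130b-3p with miR-301a-3p, and miR-301b-3p with miR-130a-3p. miR-454-3p was first in both.

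Arm preference, the share of 5p reads of a hairpin, does not depend on the scaling of the libraries. The hairpins of the 3 members with at least 100 reads in each library are shown with both mature arms in capitals (RNA, 5′ to 3′, RefSeq GRCh38.p14), to place the arms that the reads were counted on.
mir-130b: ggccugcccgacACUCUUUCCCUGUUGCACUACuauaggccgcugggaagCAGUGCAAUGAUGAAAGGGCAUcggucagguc
mir-301a: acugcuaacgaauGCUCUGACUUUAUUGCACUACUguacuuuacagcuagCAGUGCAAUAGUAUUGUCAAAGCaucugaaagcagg
mir-454: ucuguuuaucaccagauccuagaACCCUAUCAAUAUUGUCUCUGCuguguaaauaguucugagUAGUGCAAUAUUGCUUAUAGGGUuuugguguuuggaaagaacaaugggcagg
In mir-130b the 5p arm held 80.7% of 815 reads in BT474 (77.9 to 83.4) and 85.5% of 1268 in MDA-MB-468 (83.4 to 87.4). In mir-301a it held 80.0% of 661 reads in BT474 (76.8 to 83.0) and 75.9% of 619 in MDA-MB-468 (72.4 to 79.2). In both hairpins most reads thus lay on the 5p arm, without the family seed, in both libraries; 48.4% of 124 hairpins had more 5p than 3p reads in both. mir-454 was the opposite, with 8.02% (7.36 to 8.72) of 6275 reads on the 5p arm in BT474 and 3.74% (3.05 to 4.54) of 2646 in MDA-MB-468. mir-301b, with 20 reads in BT474 and 61 in MDA-MB-468, had no 5p read listed in BT474 and 4.92% (1.03 to 13.7) on that arm in MDA-MB-468. mir-301a and mir-301b, whose 3p arms are nearly alike, therefore had opposite arm preferences in MDA-MB-468.

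Between the libraries these shares differed by less than 5 points. The difference, MDA-MB-468 minus BT474, was 4.75 points for mir-130b, -4.10 for mir-301a and -4.27 for mir-454. The intervals did not overlap for mir-130b and mir-454 and did for mir-301a; they did not overlap for 48.4% of the 124 hairpins, so 2 of 3 is near the background. None of the 3 reached a shift of 20 points, which 3.23% of the hairpins did. For mir-454, with a 5p share of 8.02% in BT474, a fall of that size was not possible. Nor was a rise of that size for mir-130b, with 80.7% in BT474. The median absolute difference over the 124 was 0.695 points. Over all 5 hairpins together, 5p arms made up 21.7% (20.8 to 22.7) of the reads in BT474 and 28.6% (27.4 to 29.8) in MDA-MB-468.

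**Figure D4:**
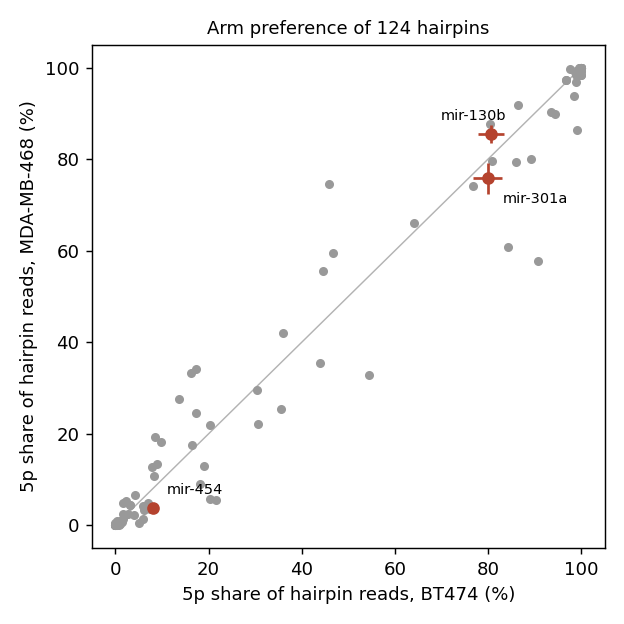
Share of 5p reads (%) of 124 hairpins in BT474 (horizontal) and MDA-MB-468 (vertical); the line marks equal shares, and the 3 labelled members carry Clopper-Pearson 95% intervals. mir-130b and mir-301a lie between 75.9% and 85.5% and mir-454 at 8.02% and 3.74%.

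Other miRNAs on the same chromosomes were taken as lists. Of 11 other 17q hairpins, 6 were in the table with 11 arms, of which 7 could be compared: 5 were called higher in BT474, 1 higher in MDA-MB-468 and 1 neither, with a median log2 ratio of -1.11 beside 0.30 for all miRNAs and a background of 28.3% lower. Both arms of mir-21 are among those 5. miR-3064-5p, called on 11 counts in BT474 and 7 in MDA-MB-468, is encoded 5350 kb from the nearer of the pair. miR-3614-5p, with 43 counts in BT474 and not listed in MDA-MB-468, is encoded 2246 kb away. With median-of-ratios scaling miR-21-5p (-0.95) and miR-142-3p (-0.88) lost their calls, which left 3 called lower. miR-21-5p, known as an oncogenic miRNA and encoded 690 kb from MIR301A, had a log2 ratio of -1.11 (-1.11 to -1.11), smaller than that of miR-454-3p. miR-142-3p, a blood cell miRNA 807 kb from MIR454, was at 15.8 CPM in BT474 and 7.69 in MDA-MB-468 (log2 -1.04), and the other arm miR-142-5p was at -0.30. The arm called higher was miR-4728-3p, from an intron of ERBB2 19411 kb away, with 10 counts in BT474 and 45 in MDA-MB-468 (log2 1.01, 0.00 to 2.17). Its call was lost under 4 of the 5 alternatives that rescaled or thinned the libraries. Of the 22q11 list 5 arms could be compared, 1 higher, none lower and 4 neither, beside a background of 32.9% higher and 28.3% lower. The higher arm, miR-1306-3p, had 3 counts in BT474 and 52 in MDA-MB-468. The comparable hairpins start at chr22:20033139 (mir-185), 20086058 (mir-1306) and 20249134 (mir-1286), against 21652981 for MIR301B. Among the 4, miR-185-5p was at 1279.7 CPM in BT474 and 718 in MDA-MB-468 (log2 -0.83). It was called lower, at -1.04, without the 10 most abundant miRNAs. The list for mir-130a held 5 comparable arms of chromosome 11 hairpins, beside a background of 61.2% called in either direction. Of these arms miR-192-5p, a p53-induced miRNA, was higher (log2 1.79), miR-1908-5p and miR-6747-3p were lower and 2 were neither. miR-194-5p, 1 of those 2, is also encoded by a second hairpin, and 1 listed hairpin, mir-3654, is annotated on chromosome 7. miR-1908-5p, at 18.1 CPM in BT474, was not listed in MDA-MB-468.

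The miRNAs whose levels lay nearest to each 3p member were found by the distance in log2 CPM over the 2 libraries, which carries no more than those 2 values. Nearest to miR-454-3p was miR-342-3p, described as luminal-linked, with 1300.0 CPM in BT474 and 228 in MDA-MB-468 (distance 0.21), then let-7d-3p (0.37). Nearest to miR-130a-3p were miR-181a-2-3p, with 1.17 CPM in BT474 and 167 in MDA-MB-468 (0.79), and miR-105-5p, not listed in BT474 and at 92.3 CPM in MDA-MB-468 (1.43). miR-301a-3p lay nearest to miR-576-3p (0.03) and miR-324-3p (0.19), miR-130b-3p to miR-141-5p (0.31) and miR-2110 (0.33), and miR-301b-3p to miR-1278 (0.20) and miR-6842-3p (0.24). The 2 other human miRNAs of the list with the seed AGUGCAA, miR-4295 and miR-3666, had no row among the deposited counts.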

How the data were processed

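Small RNAs of 15 to 35 nt were sequenced in 2 libraries, grouped by the cell line in the labels; the header MAD-MB-468 was taken for MDA-MB-468, the closest title. Per the file headers, the deposited counts are tags of all isoforms of a mature miRNA on a precursor, blank where not listed. The second deposited table holds scores, normalized and rounded by the authors, with a scaling that no header describes. The submitters' processing notes name Novoalign 2.07.11, but no build or annotation release. The 384 rows of predicted candidates were left out. For a name on several precursors the largest count was kept, and miR-199b-3p was merged with miR-199a-3p, leaving 1623 mature miRNAs. CPM, ratios and exact intervals were computed with Python 3.11.15 and scipy 1.17.1, and tested on simulated counts. PCR reads are not independent molecules. The miRNAs named are all member arms, the locus lists and the 2 nearest miRNAs per 3p arm; any other was named after its values were known. Members and lists were chosen with earlier results of these data known. Alternatives covered scaling, thinning, blanks, count minimum and the authors' scores.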

Additional observations from a re-analysis of the deposited data

How the results depend on the processing

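No paired analysis was possible because each group held 1 library. The log2 ratios of the summed 3p arms (-1.92 to -1.56), of mir-130a (5.86 to 6.46), of the 22q pair (-0.91 to -0.51) and of the 17q pair (-2.50 to -2.13) had the same direction and call under all 8 alternatives (4 scalings, the authors' normalized values, thinning, blanks at 2 or 1 counts). The settings for blanks could not change any of them, or any compared member arm, because none of these was blank. With the authors' values a call rested on the 2-fold limit alone, without an interval. Among single arms, miR-130b-3p gained a call under 2 (-1.14 with each) and miR-301a-3p under 3; the other 6 compared arms had the same call under all 8, miR-301b-3p being 0.00 with the authors' values. Leaving out the 10 most abundant miRNAs, or upper-quartile scaling, moved all log2 ratios by -0.21, and median-of-ratios size factors by 0.16. A total that included the predicted candidates moved them by only -0.0075. Thinning was 1 random draw of the MDA-MB-468 counts. A minimum of 50 counts left 146 miRNAs called higher and 103 lower, since fewer were compared. With both arms summed, mir-130a made up 20.7% of the MDA-MB-468 reads, the 22q pair 22.95% (10.7% in BT474) and the 17q pair 56.4% (89.2% in BT474), because miR-130b-5p and miR-301a-5p then count. Depth limits miR-130a-3p in BT474 (8 counts) and mir-301b in both libraries. The settings applied to the 17q, 22q11 and chromosome 11 lists were chosen after seeing the data.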

Other observations

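The miR-148/152 family carries CAGUGCA at bases 2 to 8, the same 7 bases that open miR-130b-3p, miR-301a-3p and miR-301b-3p at bases 1 to 7. Its 3 arms with that seed also had no common direction. In BT474 miR-148a-3p was at 14990 CPM, miR-148b-3p at 4603 and miR-152-3p at 1014. In MDA-MB-468 the same arms were at 170240 CPM (log2 ratio 3.51), 8639.8 CPM (0.91, not called) and 82.2 CPM (-3.62). In MDA-MB-468 miR-152-3p was thus below miR-454-3p (222 CPM), and in BT474 the 2 stood at 1014 and 1124 CPM.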
